A study of Mus musculus with 21 samples.

Results

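The genes described here build, acidify and arm the lysosome: the subunits of the vacuolar proton pump (V-ATPase), the cathepsin proteases and the lysosomal membrane glycoproteins Lamp1 and Lamp2. They were taken by symbol, as every gene whose symbol begins with Atp6v or Atp6ap, every gene named Cts followed by 1 letter, and Lamp1 and Lamp2. That gave 46 members among 23337 gene symbols, with 13 subunits of the V1 sector, 10 of the V0 sector, 3 accessory subunits, 18 cathepsins and 2 membrane glycoproteins. RNA was sequenced in bulk from sorted B cells of the Peyer's patches (PP, lymphoid follicles of the small intestine), the mesenteric lymph nodes (mLN) and the spleen of C57BL/6 mice aged 8-12 weeks. The labels name BCL2 HEL pos, HEL pos and HEL neg B cells without expanding HEL or BCL2, and the stated subject is self-reactive B cells in the gut. In each tissue there were 3 libraries of BCL2 HEL pos cells (922, 926 and 950), 3 of HEL pos cells (Pool, 392 and 399) and 1 pooled library of HEL neg cells, 21 libraries in all. The labels give no promoter, allele or receptor for these cells and do not say whether a number is a single mouse. The p-values therefore speak only to how far these libraries scatter, and some of that scatter may be technical.

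The V-ATPase uses ATP to pump protons into endosomes and lysosomes. Its V1 sector, on the cytosolic side, splits ATP and turns a central stalk, and its V0 sector, in the membrane, carries the protons. The low pH that results activates the cathepsins, which digest engulfed proteins and, in B cells, the invariant chain and the antigens that are loaded on MHC class II molecules. Lamp1 and Lamp2 are heavily glycosylated proteins that line the inner face of the lysosomal membrane.

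Library totals were 5475131 to 11340876 counts, and the members took 0.581% to 0.8156% of them. Levels are given as CPM, counts scaled to a common library size after TMM, a factor that corrects for differences in composition. A count of 3 in a library, taken as the floor, came to 0.263 to 0.5181 CPM, which covers counting error only. B cell markers summed to 34300 to 55200 CPM in every library. Libraries 392 and 399 of HEL pos cells held 0 to 0.864 CPM of Y-linked transcripts in all 3 tissues, against 96 to 164 CPM in the rest, and Xist was detected in all 21 libraries. The BCL2 HEL pos libraries held both, with Xist at 155 to 289 CPM. Comparisons of BCL2 HEL pos with HEL pos cells, and of HEL pos with HEL neg cells, are thus not matched for these transcripts. The part of sex in them was not tested. Olfactory and vomeronasal receptor transcripts summed to 826 and 709 CPM in the PP HEL pos libraries Pool and 399, against 52.4 to 488 CPM in the others. Gut epithelial markers reached 42.6 to 190 CPM in PP BCL2 HEL pos cells, 259 to 1110 CPM in PP HEL pos cells and 1220 CPM in PP HEL neg cells, and at most 70.3 CPM in any mLN or spleen library.

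Of the 46 members, 29 passed the filter on low counts and 17 did not. The 17 were the V1 genes Atp6v1b1, Atp6v1c2, Atp6v1e2 and Atp6v1g3, the V0 genes Atp6v0a4, Atp6v0c, Atp6v0c-ps2, Atp6v0d2 and Atp6v0e2, the accessory gene Atp6ap1l, and the cathepsins Ctsf, Ctsg, Ctsj, Ctsk, Ctsm, Ctsq and Ctsr. The highest level in any library was 3.80 CPM for Ctsf, a cysteine cathepsin, in the PP HEL pos library 399. It was 1.55 CPM for Atp6v0a4, 1.52 for Atp6v0d2, 1.15 for Ctsk, 1.04 for Atp6v1c2 and 1.01 for Ctsj and Ctsr, the subunits among them being known from kidney or osteoclasts. Atp6v1g3 reached 0.691 CPM, Ctsq 0.449, Atp6ap1l and Ctsm 0.443, Atp6v0e2 0.437, Atp6v1b1 0.345 and Atp6v0c 0.148, while Atp6v1e2 and the pseudogene Atp6v0c-ps2 had 0 counts in every library. Ctsg, the neutrophil serine protease cathepsin G, reached 1.09 CPM, and granulocyte markers summed to 50.5 to 194 CPM in spleen HEL pos cells and 73.8 CPM in spleen HEL neg cells, against at most 1.38 CPM elsewhere. Atp6v0c encodes the proteolipid that forms the proton-carrying ring, yet only 4 counts were listed for it over all 21 libraries. In the annotation 10.8% of its 50-base words also occur in other genes, such as its pseudogene Atp6v0c-ps2, and the sources used here do not say how such reads were treated in the authors' counting. The level of Atp6v0c is therefore uncertain.

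Compared per kilobase of exon over all 21 libraries, the cathepsins had both the highest and some of the lowest levels among the tested members. The length is that of all annotated exons of a gene merged, such as 9.55 kb for Lamp2 and 2.68 kb for Lamp1. A gene whose transcripts in these cells are shorter than that has its level understated. Ctss, the cysteine protease that trims the invariant chain in antigen-presenting cells, averaged 878 CPM per kb, and Ctsz, a carboxypeptidase, 470 CPM per kb. Lamp1 averaged 147 and Lamp2 14.1 CPM per kb. Within the pump, the rotor subunit Atp6v1f averaged 216 CPM per kb, the accessory subunit Atp6ap1 and the peripheral stalk subunit Atp6v1g1 each 123, the proteolipid Atp6v0b 70.5 and the catalytic subunit Atp6v1a 13.7. Among the V0 a subunits, which line the proton path, Atp6v0a1 (9.60 CPM per kb) lay above Atp6v0a2 (4.78). The lowest levels belonged to Ctse (4.13), Ctsw (2.07), Ctsl (1.98) and Atp6v1g2 (0.446 CPM per kb).

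Lysosomal genes are known targets of the MiT/TFE transcription factors, which bind E-boxes, and the promoters of some members are shown because they carry that letter pattern. Of the 46 members, 34 had a promoter entry in RefSeq (build GRCm38.p6), and the 250 bases before the start were searched on both strands. The letters CACGTG, which read the same on both strands, occurred in 7 of the 34 (20.6%), against 1854 of 27025 genes (6.86%). The longer TCACGTGA, which contains them, occurred in 3 of the 34 (8.82%) and in 245 genes (0.907%). The same letters with a G before and a C after them, also searched, occurred in 0 of the 34. They occurred in 73 of 27025 genes (0.27%), too few for their absence from 34 promoters to show a difference. The 7 were Lamp1, Atp6v0b, Atp6v1a, Ctsd, Ctsa, Ctsl and Ctsf. Lamp1 held 4 copies between 61 and 15 bases before its start. The windows below are at chr8:13159070-13159160 (plus strand, Lamp1), chr4:117887330-117887395 (minus strand, Atp6v0b) and chr16:44139355-44139420 (minus strand, Atp6v1a), with CACGTG in capitals.
Lamp1: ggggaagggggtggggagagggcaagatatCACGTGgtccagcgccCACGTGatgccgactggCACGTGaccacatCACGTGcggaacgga
Atp6v0b: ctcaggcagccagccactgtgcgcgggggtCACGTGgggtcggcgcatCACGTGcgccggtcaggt
Atp6v1a: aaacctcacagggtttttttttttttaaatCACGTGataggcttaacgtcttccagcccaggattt
A match is a string of letters and no measured binding site. The members with no entry were Atp6ap1l, Atp6v0a2, Atp6v0c-ps2, Atp6v0d2, Atp6v1b2, Atp6v1c1, Atp6v1g1, Atp6v1h, Ctsb, Ctse, Ctsh and Ctsw.

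**Figure D1:**
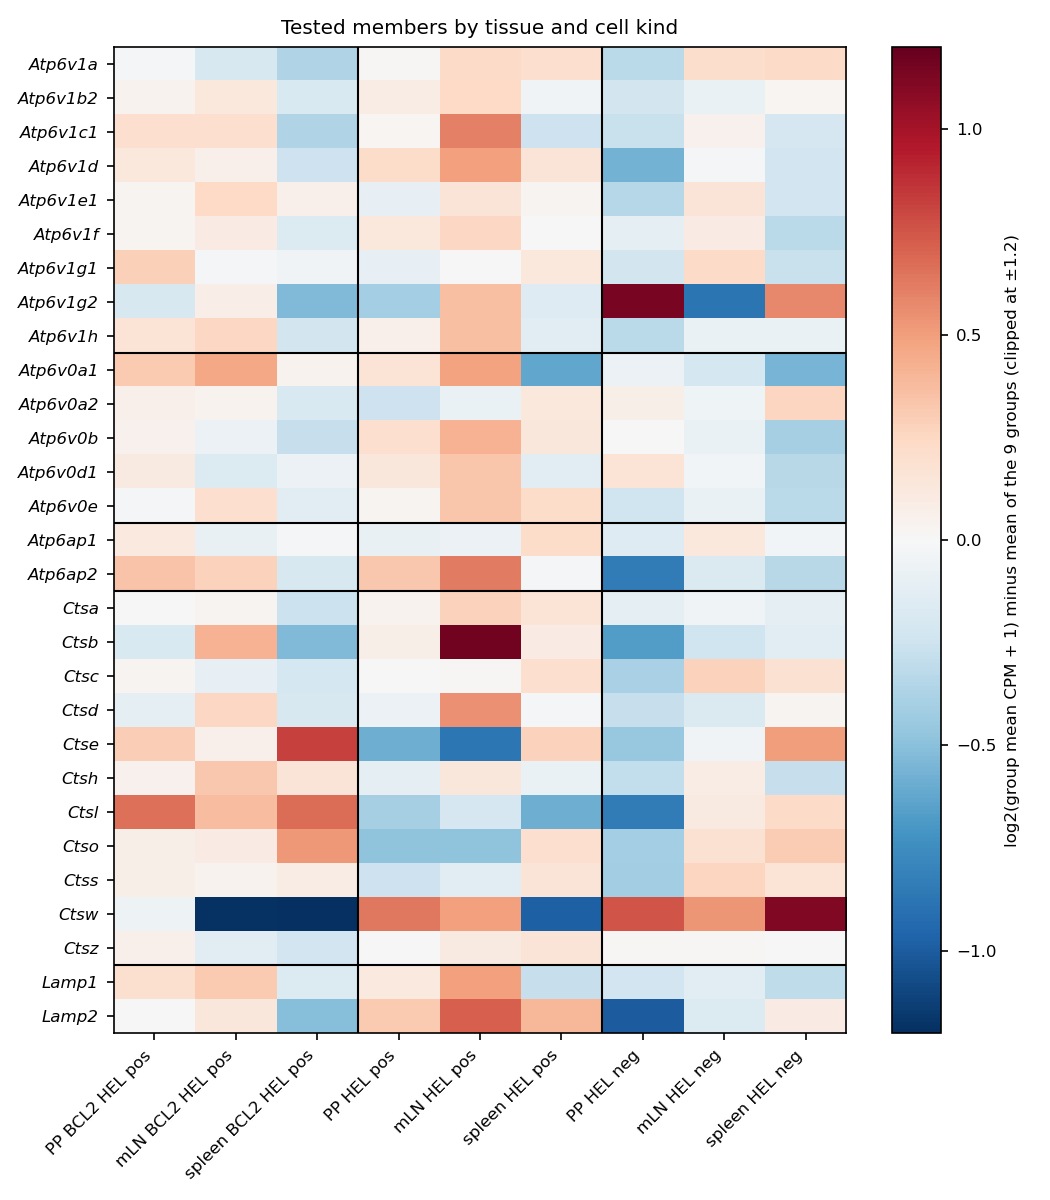
Colours show log2(group mean CPM + 1) of the 29 tested members (rows, by class from V1 subunits at the top to Lamp1 and Lamp2) minus the mean of the 9 groups, clipped at ±1.2, with the groups as columns. The mLN HEL pos column is above the mean for Ctsb, Atp6v1c1, Atp6ap2, Lamp1 and Lamp2 and below it for Ctse and Ctso, and the PP HEL neg column is below it for Lamp2 and Atp6ap2.

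Among the 13 comparisons made, the largest number of members was called between mLN and spleen HEL pos cells. Of the 29 tested, 9 were higher and 2 lower in mLN, 37.9% of them, where 24.5% of all 11419 tested genes were called, 12.9% higher and 11.5% lower (edgeR's quasi-likelihood test, Benjamini-Hochberg adjusted p under 0.05 over all genes). The median log2 fold change was 0.30 over the members and -0.01 over all genes. By class, 2 of 9 V1 subunits, 2 of 5 V0 subunits, 1 of 2 accessory subunits, 3 of 11 cathepsins and Lamp1 rose, and 2 cathepsins fell.

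Ctsb, on chromosome 14 (chr14:63122462-63145923, GRCm38), encodes cathepsin B, an abundant cysteine protease of lysosomes. It had 847, 681 and 721 CPM in mLN HEL pos cells, against 409, 341 and 327 CPM in spleen HEL pos cells. Every mLN library lay above every spleen library, and the log2 fold change was 1.07 ± 0.17 (SE; adjusted p = 9.74e-05 in edgeR). Ctsd, the aspartic protease cathepsin D (chr7:142375911-142388038), had 230, 217 and 205 CPM in mLN HEL pos cells and 174, 125 and 140 CPM in spleen HEL pos cells. Its groups did not overlap either, and it rose by 0.58 ± 0.13 (adjusted p = 0.00277). Ctsw, a cathepsin known from cytotoxic T and NK cells, was far lower in level, with 10.6, 3.75 and 3.33 CPM in mLN HEL pos cells and 1.01, 1.23 and 2.21 CPM in spleen HEL pos cells. It rose by 2.00 ± 0.70 (adjusted p = 0.0405), and the pooled mLN library stood well above the other two.

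Within the pump, the largest rise was that of Atp6v0a1 (chr11:101009452-101063719), the a subunit of V0. It had 72.4, 83.2 and 86.2 CPM in mLN HEL pos cells, against 34.2, 45.8 and 31.0 CPM in spleen HEL pos cells, with groups well apart (1.14 ± 0.17, adjusted p = 5.17e-05). Atp6v1c1 (chr15:38661933-38692446), the C subunit that joins V1 to V0 when the pump assembles, had 142, 130 and 134 CPM in mLN HEL pos cells and 92.6, 64.0 and 67.1 CPM in spleen HEL pos cells. The mLN libraries were close together and all higher (0.87 ± 0.17, adjusted p = 0.00049). Atp6ap2, the X-linked accessory subunit also known as the prorenin receptor (chrX:12587801-12617049), had 236, 265 and 267 CPM in mLN HEL pos cells and 150, 167 and 177 CPM in spleen HEL pos cells. It rose by 0.65 ± 0.12 (adjusted p = 0.000242), again without overlap.

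The regulatory V1 subunit Atp6v1h had 125, 143 and 121 CPM in mLN HEL pos cells and 93.5, 88.2 and 93.1 CPM in spleen HEL pos cells, a rise of 0.51 ± 0.13 (adjusted p = 0.00431). The V0 subunit Atp6v0d1, which couples the stalk to the proton-carrying ring, had 118, 127 and 124 CPM in mLN HEL pos cells and 84.8, 103 and 77.3 CPM in spleen HEL pos cells (0.49 ± 0.13, adjusted p = 0.0071). Neither gene's groups overlapped. Lamp1 (chr8:13159161-13175338) had 505, 542 and 514 CPM in mLN HEL pos cells, against 295, 295 and 327 CPM in spleen HEL pos cells, and rose by 0.78 ± 0.12 (adjusted p = 6.75e-05). Lamp2 (chrX:38401357-38456454) had 190, 204 and 202 CPM in mLN HEL pos cells and 152, 169 and 154 CPM in spleen HEL pos cells. Its groups were also apart, but its log2 fold change of 0.34 ± 0.16 had an adjusted p of 0.122.

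The 2 members that were lower in mLN HEL pos cells were the cathepsins Ctso and Ctse. Ctso (chr3:81932601-81956725), a cysteine cathepsin, had 152, 117 and 115 CPM in mLN HEL pos cells, against 239, 177 and 206 CPM in spleen HEL pos cells. No mLN library reached the lowest spleen library, and the log2 fold change was -0.69 ± 0.14 (adjusted p = 0.00114). Ctse, an endosomal aspartic protease, had 3.51, 6.11 and 8.94 CPM in mLN HEL pos cells and 15.5, 19.1 and 10.2 CPM in spleen HEL pos cells (-1.26 ± 0.37, adjusted p = 0.0156). The most abundant cathepsin, Ctss, had a log2 fold change of -0.28 ± 0.12 with an adjusted p of 0.11.

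Transcripts listed as markers of other cell types also changed in this comparison. In bulk RNA a change in the number of cells of a type cannot be told apart from a change of RNA per cell. Macrophage markers summed to 3.47 to 15.7 CPM in mLN HEL pos cells and 24.1 to 51.8 CPM in spleen HEL pos cells, with 4 of 7 tested markers lower in mLN and none higher. Cd14 and Timd4 were at 0 in all 3 mLN HEL pos libraries. Dendritic cell markers summed to 31.2 to 47.6 CPM in mLN HEL pos cells and 12.0 to 23.6 CPM in spleen HEL pos cells, with 2 of 6 tested markers higher and 1 lower. Most of the mLN sum was Ccr9, at 24.2 to 31.4 CPM. T and NK cell markers summed to 24.9 to 79.7 CPM in mLN HEL pos cells and 21.3 to 66.4 CPM in spleen HEL pos cells, with 4 of 11 higher and 1 lower. Granulocyte markers summed to 0 to 0.251 CPM in mLN HEL pos cells and 50.5 to 194 CPM in spleen HEL pos cells, with 4 of 4 tested markers lower. Plasma cell markers summed to 385 to 428 CPM in mLN HEL pos cells and 246 to 398 CPM in spleen HEL pos cells, with 3 of 6 higher and 2 lower. Of 10 B cell markers 6 were lower in mLN HEL pos cells. The part of these transcripts in the members' values was not tested. The calls of all but Ctse and Ctsw held under every alternative run, and leaving out single libraries gave 9 to 12 members called.

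The same comparison in BCL2 HEL pos cells sets other libraries against each other, within the same fit of 18 libraries, so the HEL pos libraries enter its filter, scaling and estimate of spread. There 7 of 29 members were higher in mLN than in spleen and 0 lower, 24.1% of them, where 10% of all genes were called, 5.77% higher and 4.23% lower. The median log2 fold change was 0.23 over the members and -0.02 over all genes. The 7 were Ctsb, Ctsd, Lamp1, Lamp2, Atp6ap2, Atp6v1c1 and Atp6v1h. All but Lamp2, 6 members, were also among the 11 called in HEL pos cells, which is 54.5% of the HEL pos calls and 85.7% of the BCL2 HEL pos calls. Over all genes 963 were called in both, 34.5% of the HEL pos calls and 84.3% of the BCL2 HEL pos calls, so the members' share of the BCL2 HEL pos calls was near that of all genes.

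Ctsb had 349, 523 and 467 CPM in mLN BCL2 HEL pos cells, against 226, 220 and 246 CPM in spleen BCL2 HEL pos cells. The groups were clearly separate, with a log2 fold change of 0.93 ± 0.17 (adjusted p = 0.00139). Lamp2 had 119, 144 and 133 CPM in mLN BCL2 HEL pos cells and 85.6, 76.0 and 89.8 CPM in spleen BCL2 HEL pos cells (0.64 ± 0.16, adjusted p = 0.0113). Lamp1 had 400, 474 and 505 CPM in mLN BCL2 HEL pos cells and 348, 297 and 348 CPM in spleen BCL2 HEL pos cells (0.46 ± 0.12, adjusted p = 0.0193). Both membrane glycoproteins were thus higher in mLN without overlap between libraries.

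The accessory subunit Atp6ap2 had 193, 219 and 193 CPM in mLN BCL2 HEL pos cells and 136, 141 and 159 CPM in spleen BCL2 HEL pos cells (0.46 ± 0.12, adjusted p = 0.0128). Atp6v1c1 had 100, 116 and 91.2 CPM in mLN BCL2 HEL pos cells, against 75.7, 66.1 and 64.8 CPM in spleen BCL2 HEL pos cells (0.56 ± 0.17, adjusted p = 0.0362). Atp6v1h and Ctsd rose by 0.46 ± 0.13 and 0.43 ± 0.13 (adjusted p = 0.0221 and 0.0453). Ctsd lost its call under 13 of 25 alternatives, among them no filter on low counts. It was also lost without any 1 of the mLN HEL pos libraries or the spleen HEL pos library 399. Atp6v1c1 lost its call under 6, among them without the pooled mLN HEL pos library. Leaving out the BCL2 HEL pos library 926 of spleen, or that of mLN, left 1 call, Ctsb, and leaving out the spleen library 922 left 3. Ctsb kept its call under every alternative run, while a fit of the compared mLN and spleen libraries gave 11 members called.

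Whether the mLN to spleen difference itself differed between BCL2 HEL pos and HEL pos cells was tested as an interaction. It called 0 of 29 members in edgeR and 0 in DESeq2, with 2 at an unadjusted p under 0.05, and 0.385% of all genes were called, 0.219% higher and 0.166% lower. The 2 were Atp6v0d1, with an interaction of -0.60 ± 0.18 (adjusted p = 0.192), and Atp6v0a1, with -0.73 ± 0.24 (adjusted p = 0.269). Atp6v0d1 had 78.4, 87.4 and 94.2 CPM in mLN BCL2 HEL pos cells and 86.4, 94.8 and 96.6 CPM in spleen BCL2 HEL pos cells, groups that overlap. Atp6v0a1 had 81.2, 81.0 and 77.5 CPM in mLN BCL2 HEL pos cells, close to the HEL pos values in mLN, and 66.5, 51.8 and 59.9 CPM in spleen BCL2 HEL pos cells. The interaction of Ctsb was -0.14 ± 0.24 (adjusted p = 0.952). These standard errors allow sizeable differences between the cell kinds, so the members are not shown to respond alike.

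**Figure D2:**
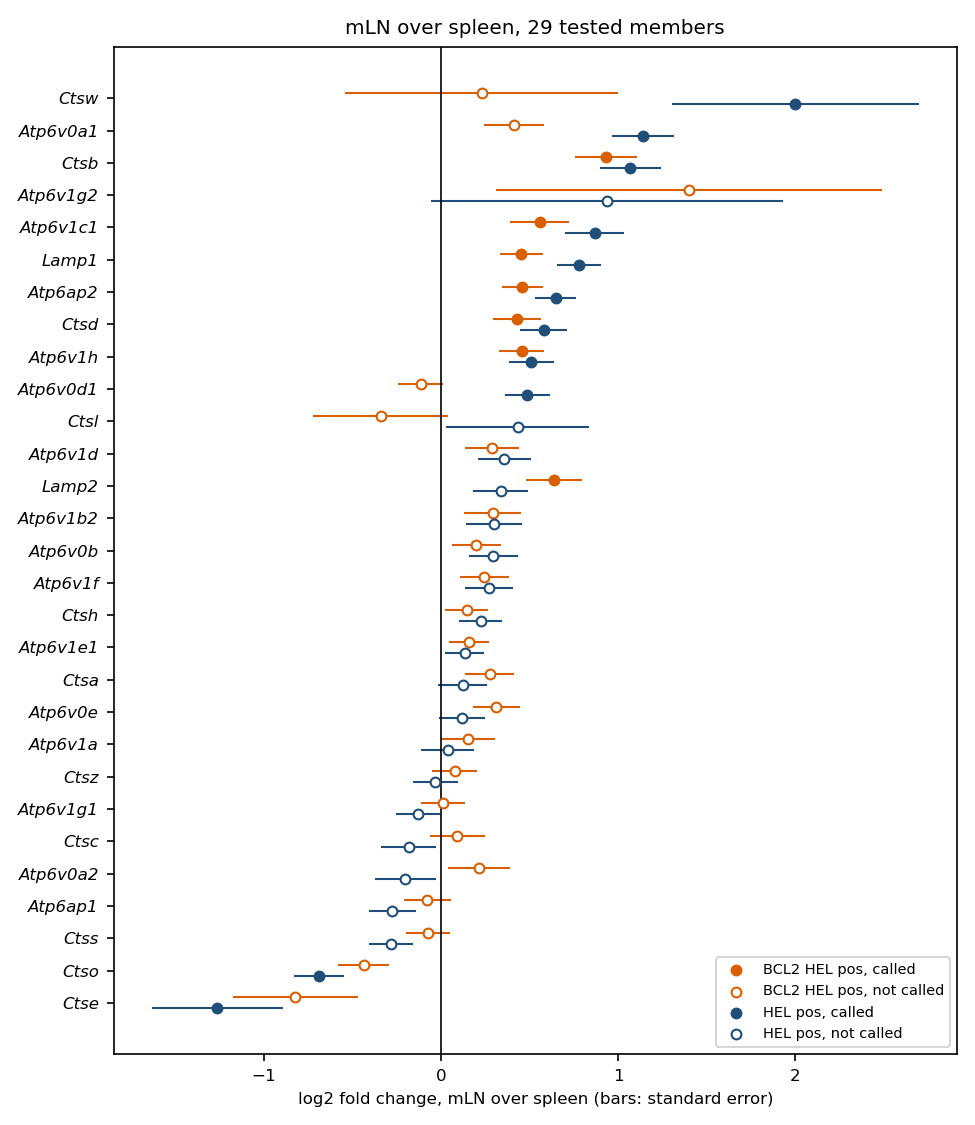
Points are log2 fold changes of mLN over spleen for the 29 tested members, in BCL2 HEL pos cells (orange) and HEL pos cells (blue), with bars of 1 standard error and filled points for calls at an adjusted p under 0.05. Atp6ap2, Atp6v1c1, Atp6v1h, Ctsb, Ctsd and Lamp1 are filled and to the right of 0 in both cell kinds, Ctso and Ctse lie to the left in both, and Atp6v0d1 lies on opposite sides.

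Between PP and spleen fewer members were called. In HEL pos cells 3 of 29 were higher and 2 lower in PP than in spleen, 17.2% of them, close to the 15.4% of all genes called, 7.94% higher and 7.43% lower. Their median log2 fold change was -0.05, and that of all genes 0.02. Atp6v0a1 had 75.9, 70.6 and 46.8 CPM in PP HEL pos cells, against 34.2, 45.8 and 31.0 CPM in spleen HEL pos cells, and rose by 0.81 ± 0.18 (adjusted p = 0.00308). Lamp1 had 390, 446 and 366 CPM in PP HEL pos cells and rose by 0.39 ± 0.12 (adjusted p = 0.0323). Ctsw had 4.51, 4.08 and 11.1 CPM in PP HEL pos cells, all above the spleen libraries (2.14 ± 0.70, adjusted p = 0.0423).

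Lower in PP HEL pos cells were Ctso and Ctss. Ctso had 136, 132 and 117 CPM in PP HEL pos cells, all below the spleen libraries, and a log2 fold change of -0.69 ± 0.14 (adjusted p = 0.00238). Ctss had 910, 1040 and 1050 CPM in PP HEL pos cells and 1320, 1150 and 1500 CPM in spleen HEL pos cells (-0.40 ± 0.12, adjusted p = 0.0311). Without the 3 pooled HEL pos libraries 1 of these 5 calls was left (Ctso), as when only the compared libraries were fitted, and without the PP libraries 399 and Pool 1 was left (Atp6v0a1). The count was 2 without the pooled spleen library and 3 without the pooled PP library, the spleen library 392 or 399, or the mLN library 392. Of 13 tested gut epithelial markers 10 were higher in PP HEL pos cells, and their part in these values was not tested.

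In BCL2 HEL pos cells 2 members were higher and 1 lower in PP than in spleen, 10.3% of 29, where 7.34% of all genes were called, 4.81% higher and 2.53% lower. The median log2 fold change was 0.23 over the members, as large as that of mLN over spleen, and -0.02 over all genes, and 12 members had an unadjusted p under 0.05. Atp6ap2 had 188, 221 and 222 CPM in PP BCL2 HEL pos cells, against 136, 141 and 159 CPM in spleen BCL2 HEL pos cells (0.51 ± 0.12, adjusted p = 0.00784). Atp6v1c1 had 82.5, 98.9 and 125 CPM in PP BCL2 HEL pos cells and 75.7, 66.1 and 64.8 CPM in spleen BCL2 HEL pos cells (0.55 ± 0.17, adjusted p = 0.0489). Ctso had 166, 182 and 220 CPM in PP BCL2 HEL pos cells and 246, 268 and 260 CPM in spleen BCL2 HEL pos cells (-0.47 ± 0.14, adjusted p = 0.0467), and it is the 1 member called in both kinds of cells, 20% of the 5 HEL pos calls and 33.3% of the 3 BCL2 HEL pos calls, against 30.9% and 64.8% over all genes. For each of these genes the PP and spleen libraries were apart.

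With the library number as a block, which pairs PP and spleen libraries of 1 number, 5 members were called in that comparison, Lamp1 and Lamp2 being added. Without the spleen BCL2 HEL pos library 922 all 3 lost their call, the adjusted p of Atp6ap2 being 0.0512 in edgeR. Leaving out any 1 of the following left the single call of Atp6ap2: the BCL2 HEL pos libraries 926 and 950 of spleen, 926 of PP, or 922, 926 and 950 of mLN, and the HEL pos libraries 392 and 399 of mLN and 399 of spleen. The interaction of BCL2 with PP over spleen called 0 of 29 members in edgeR and in DESeq2, with 7 at an unadjusted p under 0.05 and 0.00876% of all genes called. Lamp2 had an interaction of 0.58 ± 0.22 (adjusted p = 0.425), and the peripheral stalk subunit Atp6v1g1, with the smallest p, 0.53 ± 0.18 (adjusted p = 0.352).

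Set against mLN, PP HEL pos cells had 3 of 29 members lower and 0 higher, 10.3% of them, where 8.86% of all genes were called, 5.34% higher and 3.52% lower. Ctsb had 384, 313 and 360 CPM in PP HEL pos cells, less than the 847, 681 and 721 CPM of every mLN HEL pos library (-1.10 ± 0.17, adjusted p = 0.000745). Ctsd had 156, 151 and 117 CPM in PP HEL pos cells, against 230, 217 and 205 CPM in mLN HEL pos cells (-0.63 ± 0.13, adjusted p = 0.00649). Atp6v1c1 had 89.0, 106 and 76.7 CPM in PP HEL pos cells, against 142, 130 and 134 CPM in mLN HEL pos cells (-0.59 ± 0.17, adjusted p = 0.0293). All 3 were apart from the mLN libraries, and they share those libraries with the comparison of mLN and spleen. Without the PP library 392, 5 members were called, Lamp1 and Lamp2 being added, and without the PP libraries 399 and Pool or in a fit of the compared libraries alone 1 was, Ctsb. Atp6v1c1 lost its call under 8 of 25 alternatives. Among them was leaving out any 1 of the mLN HEL pos libraries, or the PP library Pool or 399.

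Between PP and mLN BCL2 HEL pos cells 0 of 29 members were called in edgeR, with 6 at an unadjusted p under 0.05, while DESeq2 called 1 (Ctsb). Of all genes 1.16% were called, 0.806% higher and 0.35% lower. Ctsb had 236, 257 and 388 CPM in PP BCL2 HEL pos cells and 349, 523 and 467 CPM in mLN BCL2 HEL pos cells. The PP library 950 lay above the lowest mLN library, and the log2 fold change was -0.61 ± 0.17 (adjusted p = 0.103). Without that PP library, edgeR called Ctsb alone.

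**Figure D3:**
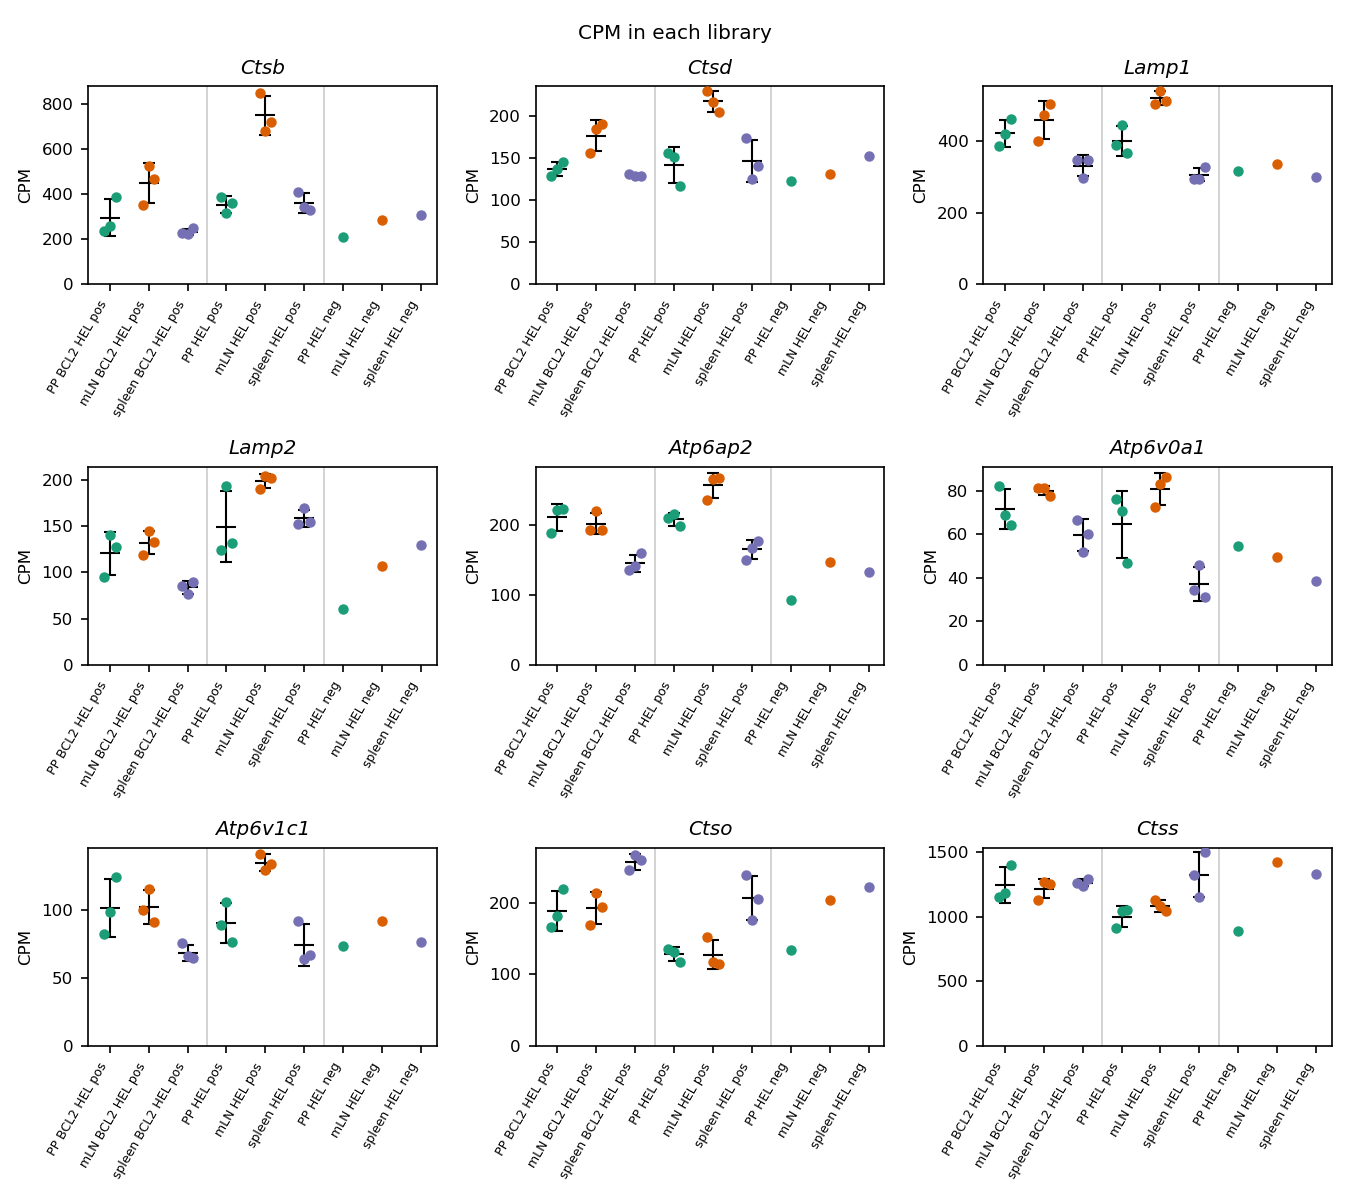
Each point is the level of a gene in 1 library in CPM (vertical axes start at 0), for 9 members across the 9 groups, with a line at the mean and bars of 1 SD where a group has 3 libraries. The 3 mLN HEL pos libraries are the highest for Ctsb (681 to 847 CPM) and Ctsd (205 to 230 CPM), and the spleen HEL pos libraries are low for Atp6v0a1 (31.0 to 45.8 CPM).

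Compared with HEL pos cells of the same tissue, BCL2 HEL pos cells had lower levels of several members in mLN and spleen. In mLN 6 of 29 were lower and 1 higher, 24.1% of them, where 11.7% of all genes were called, 5.78% higher and 5.9% lower. The median log2 fold change was -0.17 over the members and -0.01 over all genes. Ctsb had 349, 523 and 467 CPM in mLN BCL2 HEL pos cells, all below the 847, 681 and 721 CPM of mLN HEL pos cells (-0.76 ± 0.17, adjusted p = 0.00602). Lamp2 had 119, 144 and 133 CPM in mLN BCL2 HEL pos cells and 190, 204 and 202 CPM in mLN HEL pos cells (-0.61 ± 0.16, adjusted p = 0.0141).

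The pump subunits Atp6v0d1, Atp6v0b and Atp6ap2 fell with them. Atp6v0d1 had 78.4, 87.4 and 94.2 CPM in mLN BCL2 HEL pos cells and 118, 127 and 124 CPM in mLN HEL pos cells (-0.52 ± 0.13, adjusted p = 0.0108). The proteolipid Atp6v0b had 127, 131 and 138 CPM in mLN BCL2 HEL pos cells and 181, 186 and 190 CPM in mLN HEL pos cells (-0.51 ± 0.14, adjusted p = 0.0199). Atp6ap2 fell by 0.36 ± 0.11 on the log2 scale (adjusted p = 0.0445), and no group overlapped for these subunits. Lamp2 and Atp6ap2 are X-linked, and the mLN HEL pos libraries 392 and 399 lacked the Y-linked transcripts of the BCL2 HEL pos libraries. The part of sex in these values was not tested. Ctso was the member that rose, with 170, 214 and 195 CPM in mLN BCL2 HEL pos cells and 152, 117 and 115 CPM in mLN HEL pos cells (0.58 ± 0.14, adjusted p = 0.0113).

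Ctsw had 0.14, 2.19 and 1.12 CPM in mLN BCL2 HEL pos cells, near the floor, and 10.6, 3.75 and 3.33 CPM in mLN HEL pos cells (-2.33 ± 0.71, adjusted p = 0.0358). T and NK cell markers moved the same way, at 15.4 to 16.5 CPM in mLN BCL2 HEL pos cells and 24.9 to 79.7 CPM in mLN HEL pos cells, with 7 of 11 lower. Trat1 and Ncr1 were at 0 in all 3 mLN BCL2 HEL pos libraries, and the part of these cells in the Ctsw values was not tested. Without the mLN HEL pos library 392 the count was 1 (Ctsb). It was 2 without the mLN BCL2 HEL pos library 922 and 3 without the HEL pos library 399 or the BCL2 HEL pos library 950, while fitting only the libraries compared gave 11. Ctsb kept its call under every alternative run.

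In spleen 3 members were lower and 2 higher in BCL2 HEL pos cells, 17.2% of 29, where 9.37% of all genes were called, 4.55% higher and 4.82% lower. Granulocyte markers summed to 0 to 0.694 CPM in spleen BCL2 HEL pos cells and 50.5 to 194 CPM in spleen HEL pos cells, with 4 of 4 tested markers lower, and their part in the values that follow was not tested. Lamp2 fell furthest, with 85.6, 76.0 and 89.8 CPM in spleen BCL2 HEL pos cells, against 152, 169 and 154 CPM in spleen HEL pos cells (-0.91 ± 0.16, adjusted p = 0.000777). Ctsb had 226, 220 and 246 CPM in spleen BCL2 HEL pos cells and 409, 341 and 327 CPM in spleen HEL pos cells (-0.63 ± 0.17, adjusted p = 0.0267). The catalytic subunit Atp6v1a had 51.3, 78.3 and 62.4 CPM in spleen BCL2 HEL pos cells and 105, 88.5 and 90.7 CPM in spleen HEL pos cells (-0.55 ± 0.15, adjusted p = 0.0249). All 3 groups were apart.

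The 2 that rose in spleen BCL2 HEL pos cells were Atp6v0a1 and Ctsl. Atp6v0a1 had 66.5, 51.8 and 59.9 CPM in spleen BCL2 HEL pos cells and 34.2, 45.8 and 31.0 CPM in spleen HEL pos cells (0.70 ± 0.18, adjusted p = 0.014). Ctsl, the cysteine protease cathepsin L, had 17.3, 22.1 and 17.9 CPM in spleen BCL2 HEL pos cells and 8.86, 7.25 and 6.05 CPM in spleen HEL pos cells (1.38 ± 0.40, adjusted p = 0.033). Neither gene's groups overlapped. The pooled HEL pos library shares Y-linked transcripts with all BCL2 HEL pos libraries, unlike the HEL pos libraries 392 and 399. Without it in the spleen 3 members were called, of which 1, the X-linked Lamp2, was among the 5, and Atp6v0b and Atp6v0e were added. The count was 1 without the spleen BCL2 HEL pos library 922, 2 without 950 or the spleen HEL pos library 399, 3 without 926, and 8 without the PP HEL pos library Pool or 399, while Lamp2 kept its call under every alternative run.

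In PP only Ctso was called, 3.45% of 29 members, where 10.1% of all genes were, 5.33% higher and 4.74% lower. It had 166, 182 and 220 CPM in PP BCL2 HEL pos cells and 136, 132 and 117 CPM in PP HEL pos cells (0.54 ± 0.14, adjusted p = 0.0204). The groups were apart, and the median log2 fold change of the members was 0.04. Ctsb had 236, 257 and 388 CPM in PP BCL2 HEL pos cells and 384, 313 and 360 CPM in PP HEL pos cells, with overlap. Of 13 gut epithelial markers 6 were lower in PP BCL2 HEL pos cells, and their part was not tested. Ctso lost its call without the PP BCL2 HEL pos library 950, without the PP HEL pos library 399 (Atp6v1g1 being called in its place), without both 399 and Pool, and when only the compared libraries were fitted. The count of members called was 3 without the PP HEL pos library 392 and 2 without the PP BCL2 HEL pos library 922.

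**Figure D4:**
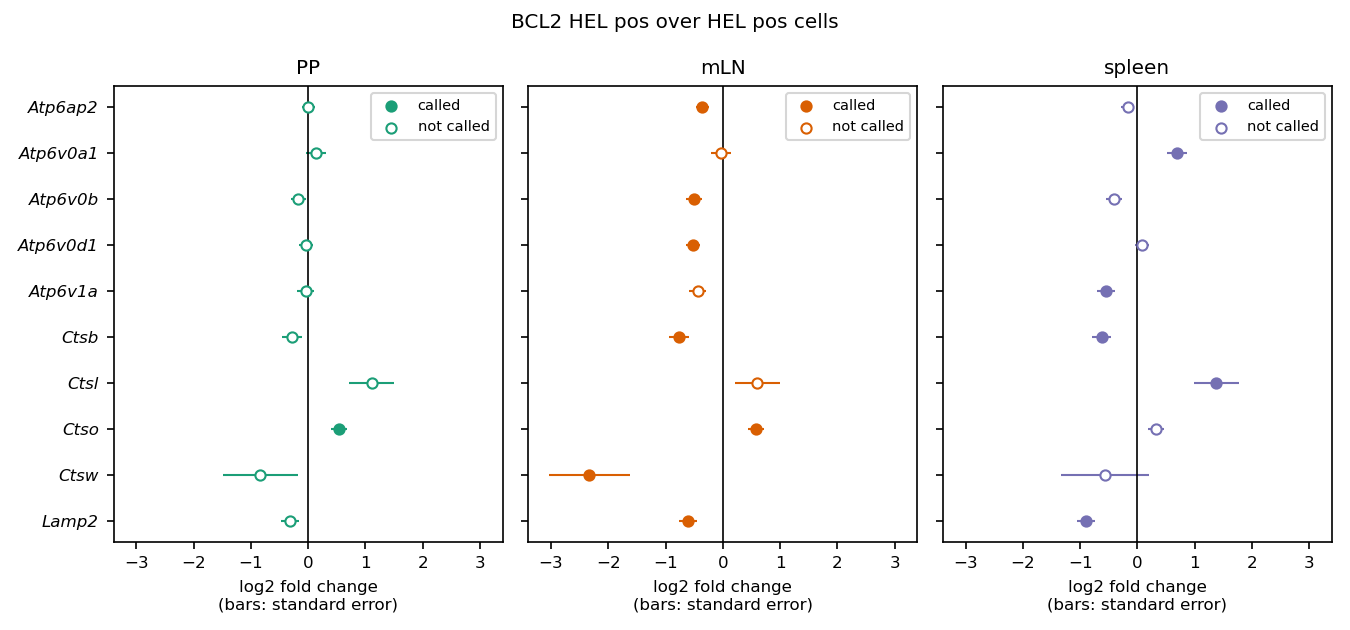
Points are log2 fold changes of BCL2 HEL pos over HEL pos cells in PP, mLN and spleen, with bars of 1 standard error and filled points for calls, for the 10 members called in at least 1 of the tissues. Ctsb and Lamp2 are filled and left of 0 in mLN and spleen, and Ctso is filled and right of 0 in PP and mLN.

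The HEL neg cells gave 1 pooled library per tissue, so they were compared over the 3 tissues with tissue as a covariate. In each fit the 9 HEL pos or BCL2 HEL pos libraries entered as independent, though the same 3 labels recur in every tissue. The SDs given over tissues include differences between tissues. In HEL pos cells 4 of 29 members were higher than in HEL neg cells and 0 lower, 13.8% of them, where 8.68% of 11406 genes were called, 3.46% higher and 5.22% lower. The median log2 fold change was 0.18 over the members and 0.02 over all genes. Atp6ap2 averaged 209 ± 41.3 CPM in HEL pos cells (SD, n = 9) and had 92.4, 147 and 132 CPM in PP, mLN and spleen HEL neg cells. It rose by 0.75 ± 0.14 (adjusted p = 0.0059 in edgeR), and the lowest HEL pos library, at 150 CPM, lay just above the highest HEL neg library.

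Ctsb averaged 487 ± 204 CPM in HEL pos cells (SD, n = 9) and had 210, 284 and 306 CPM in PP, mLN and spleen HEL neg cells (0.76 ± 0.18, adjusted p = 0.0195 in edgeR). Lamp2 averaged 169 ± 30.2 CPM in HEL pos cells (SD, n = 9) and had 59.8, 107 and 129 CPM in PP, mLN and spleen HEL neg cells (0.81 ± 0.18, adjusted p = 0.012 in edgeR). Its ranges overlapped, the lowest PP HEL pos library (124 CPM) lying below the spleen HEL neg library. The stalk subunit Atp6v1d averaged 98.0 ± 13.6 CPM in HEL pos cells (SD, n = 9) and 66.5 ± 12.7 CPM in HEL neg cells (SD, n = 3), a rise of 0.57 ± 0.12 (adjusted p = 0.0118 in edgeR). All 4 lost their call when the mLN or the PP HEL neg library was left out, and all but Ctsb with the library number as a block, which ties the HEL neg pools to the pooled HEL pos libraries. Of 7 tested dendritic cell markers 3 were lower in HEL pos than in HEL neg cells, and their part was not tested.

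In BCL2 HEL pos cells 3 members were higher and 1 lower than in HEL neg cells, 13.8% of 29, where 14.7% of 10987 genes were called, 6.56% higher and 8.1% lower. The library number could not be fitted as a block in this comparison, so libraries of 1 number count as independent. Atp6ap2 averaged 186 ± 33.7 CPM in BCL2 HEL pos cells (SD, n = 9) and rose by 0.55 ± 0.15 over the same HEL neg libraries (adjusted p = 0.0192 in edgeR). Atp6v0a1 averaged 70.3 ± 10.8 CPM in BCL2 HEL pos cells (SD, n = 9) and had 54.7, 49.5 and 38.7 CPM in PP, mLN and spleen HEL neg cells (0.55 ± 0.12, adjusted p = 0.00625 in edgeR). Ctsh, an aminopeptidase among the cathepsins, averaged 601 ± 59.3 CPM in BCL2 HEL pos cells (SD, n = 9) and 479 ± 75.0 CPM in HEL neg cells (SD, n = 3), a rise of 0.32 ± 0.10 (adjusted p = 0.0483 in edgeR). These 3 had overlapping groups.

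Ctsw averaged 1.95 ± 1.52 CPM in BCL2 HEL pos cells (SD, n = 9) and had 7.24, 6.05 and 9.55 CPM in PP, mLN and spleen HEL neg cells (-2.27 ± 0.51, adjusted p = 0.00643 in edgeR), without overlap. T and NK cell markers were at 12.2 to 27.0 CPM in BCL2 HEL pos cells and 35.4 to 90.3 CPM in HEL neg cells, with 6 of 11 lower, and their part in the Ctsw values was not tested. Of 10 tested gut epithelial markers 8 were lower in BCL2 HEL pos than in HEL neg cells, as were 3 of 6 dendritic cell markers, and their part in the members' values was not tested either. Without the mLN HEL neg library 1 of the 4 calls was left, Ctsw, which lost its own call without the spleen HEL neg library (adjusted p = 0.0723 in edgeR). The call of Ctsh was lost under 12 of 15 alternatives, among them DESeq2's size factors and no filter on low counts. Both comparisons with HEL neg cells share the same 3 HEL neg libraries.

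Over the 11 comparisons without HEL neg cells, interactions included, 16 tested members (55.2%) were called at least once and 13 never, where 40.8% of all 11419 tested genes were called at least once. Ctsb and Ctso were called 5 times each, Atp6ap2 and Atp6v1c1 4 times each, and Atp6v0a1, Lamp1, Lamp2, Ctsd and Ctsw 3 times each. The comparisons share libraries, so these counts are no independent repeats. Among the 13 was Atp6ap1, the glycosylated accessory subunit and the third X-linked member. It had 341, 357 and 500 CPM in PP, 333, 319 and 392 CPM in mLN and 370, 355 and 363 CPM in spleen BCL2 HEL pos cells. In HEL pos cells it had 344, 330 and 367 CPM in PP, 351, 372 and 333 CPM in mLN and 433, 416 and 438 CPM in spleen, and in HEL neg cells 332, 402 and 360 CPM in PP, mLN and spleen. The spleen HEL pos libraries were thus above those of both other tissues, without a call.

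Reads of some members cannot be separated from a neighbour, because the counting is not stated to use strand. Exons of Ctsb overlap Fdft1, the squalene synthase gene, over 774 bases (12.8% of Ctsb exon bases). Fdft1 changed by 0.10 ± 0.26 between mLN and spleen HEL pos cells (adjusted p = 0.824), where Ctsb changed by 1.07. Fdft1 had values nearer those of Ctsb in some other comparisons where Ctsb was called. It had 0.69 ± 0.26 for mLN over spleen in BCL2 HEL pos cells (adjusted p = 0.111 in edgeR, Ctsb 0.93). For BCL2 HEL pos over HEL pos cells in spleen it had -0.63 ± 0.27 (adjusted p = 0.145, Ctsb -0.63). In others it did not, at 0.61 ± 0.26 for PP over mLN in HEL pos cells (adjusted p = 0.143, Ctsb -1.1). For BCL2 HEL pos over HEL pos cells in mLN it had -0.04 ± 0.26 (adjusted p = 0.947, Ctsb -0.76). The part of shared reads in these Ctsb values was not tested. Ctsd overlaps the gene Gm49369 on its own strand over 34.4% of its exon bases, and Lamp1 overlaps Grtp1 over 249 bases (9.31%). Ctsl overlaps Gm47123 on the other strand over 26.8% and Gm49230 on its own strand over 6.09%. Atp6v0b overlaps Gm12841 on the other strand over 11.8%. Gm49369, Gm47123, Gm49230 and Gm12841 are not among the gene symbols that were counted. The levels of these members are uncertain by the share of reads that fall there.

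Other lysosomal genes, taken from lists chosen with earlier results known, changed in both directions between mLN and spleen HEL pos cells. The counts for this and the following lists stand beside the 24.5% of all tested genes called there, 12.9% higher and 11.5% lower. Of 36 other lysosomal hydrolases 10 were higher and 6 lower, with a median log2 fold change of 0.00. Dnase2a, the lysosomal nuclease, rose by 1.38 ± 0.15 and the galactosidase Gla by 1.58 ± 0.37, while the acid phosphatase Acp5 fell by 1.67 ± 0.20 on the log2 scale (adjusted p = 7.38e-07, 0.00301 and 2.99e-06 in edgeR). Of 22 other lysosomal membrane proteins 6 rose and 0 fell, with a median of 0.10. The tetraspanin Cd63 was at 39.5 to 51.4 CPM in mLN HEL pos cells, against 0 to 0.738 CPM in spleen HEL pos cells. The calcium channel Mcoln2 rose by 1.17 ± 0.26 (adjusted p = 0.0021 in edgeR). In BCL2 HEL pos cells 7 of the 36 hydrolases were higher and 1 lower in mLN than in spleen, with a median of 0.32. Of the 22 membrane proteins 4 were higher and 0 lower there, with a median of 0.26. Of all genes 10% were called in that comparison, 5.77% higher and 4.23% lower.

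Among protease inhibitors and targeting proteins 6 of 11 rose and 1 fell in mLN HEL pos cells, with a median of 0.79. Cst6, a secreted inhibitor of cysteine cathepsins, was at 19.9 to 24.9 CPM in mLN HEL pos cells and 0.154 to 0.449 CPM in spleen HEL pos cells. Cst7, the cystatin F that inhibits cathepsins inside the cell, was at 9.90 to 12.0 CPM in mLN HEL pos cells and 0 to 0.561 CPM in spleen HEL pos cells. Igf2r, the receptor that carries hydrolases to the lysosome, was at 32.7 to 35.3 CPM in mLN HEL pos cells and 4.38 to 8.94 CPM in spleen HEL pos cells. In mLN BCL2 HEL pos cells Cst6 was at 0.28 to 0.983 CPM and Cst7 at 1.12 to 1.70 CPM, both lower than in mLN HEL pos cells (adjusted p = 1.58e-05 and 0.0161 in edgeR).

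The MiT/TFE factors and genes that control them, such as those of the Rag GTPases, gave 3 higher and 1 lower of 11 in mLN HEL pos cells. Tfe3 rose by 0.81 ± 0.17 and the GTPase Rragd by 2.02 ± 0.48 (adjusted p = 0.000871 and 0.0033 in edgeR), and Tfeb had a log2 fold change of -0.36 ± 0.14 with an adjusted p of 0.0557. In BCL2 HEL pos cells 2 of 11 rose, where 10% of all genes were called. They were Rragd, by 1.80 ± 0.48, and folliculin (Flcn), by 0.66 ± 0.13 (adjusted p = 0.0193 and 0.00224 in edgeR), and Tfe3 had 0.12 ± 0.16 (adjusted p = 0.753). The difference between the cell kinds did not pass the test for Tfe3 (-0.70 ± 0.23, adjusted p = 0.269). Of 11 genes for pump assembly and regulation 1 fell in mLN HEL pos cells, Oxr1, by 0.69 ± 0.18 on the log2 scale (adjusted p = 0.00613 in edgeR). Tcirg1, the V0 a subunit whose symbol lies outside the rule, rose over HEL neg cells by 0.49 ± 0.11 in BCL2 HEL pos cells and 0.66 ± 0.15 in HEL pos cells (adjusted p = 0.00554 and 0.0168 in edgeR).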

How the data were processed

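The authors deposited raw counts of reads per gene, whole numbers, for the 21 libraries. Per the labels, RNA of sorted cells was read as single 50-base ends on an Illumina HiSeq, with TruSeq and Nextera XT kits both named. STAR, HTSeq, DESeq2 and the build mm10 are listed per the submitters' processing notes, with neither role nor version. Members and gene lists were chosen with earlier results of these data known. Genes were filtered with filterByExpr, scaled by TMM and tested two-sided in edgeR 4.0.16 (R 4.3.3) by its quasi-likelihood method. HEL pos and BCL2 HEL pos libraries shared 1 fit (18 libraries, 11419 genes, 12 residual degrees of freedom), with a biological coefficient of variation of 0.207. Each was compared with HEL neg in its own fit of 12 libraries (8 residual degrees of freedom, 0.259 for HEL pos and 0.193 for BCL2 HEL pos). Coordinates and exon lengths are from GENCODE M21.

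By rule, values per library are given for the 12 members called most often and the X-linked ones, and up to 8 called members with the largest changes are named in each comparison. Outside it, and chosen after their values were seen, are all 11 called members of mLN over spleen in HEL pos cells, values per library of Atp6v0b, Atp6v1a, Ctss and Ctsl, and genes such as Tfeb, Fdft1 and, in BCL2 HEL pos cells, Tfe3. Alternatives tried were each library left out in turn, no filter on low counts, DESeq2 1.42.0, edgeR with DESeq2's size factors, only the compared libraries, the library number as a block, and fits without the pooled HEL pos libraries or without 399 and Pool of the PP HEL pos libraries. Deviations from group means of same-numbered libraries correlated at 0.0315 to 0.368, over 0.1 in 15 of 18 pairs. Every pair was over 0.1 for PP with spleen in both cell kinds and for mLN with spleen in BCL2 HEL pos cells. The numbers were taken to pair libraries there. A number that pairs spleen with PP and with mLN would also pair PP with mLN, where number 926 of BCL2 HEL pos gave 0.0881. The main p-values do not use this pairing. No 2 libraries of a group were the same within sampling noise.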

Additional observations from a re-analysis of the deposited data

How the results depend on the processing

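Of 50 called values of single members, 13 kept their call under every alternative and 37 lost it under at least 1. Over 1169 such alternatives 975 kept the call, 194 lost it and 0 reversed. Counts of members called moved by over 1.5 times as follows, and the cause was not tested. Fitting only the libraries compared gave 1 (5 in the fit of 18 libraries) for PP over spleen and 1 (3) for PP over mLN in HEL pos cells, 11 (7) for mLN over spleen in BCL2 HEL pos cells, and 11 (7) in mLN and 0 (1) in PP for BCL2 HEL pos over HEL pos cells. DESeq2 called 6 (3) for PP over spleen and 1 (0) for PP over mLN in BCL2 HEL pos cells, and 9 (5) in spleen and 3 (1) in PP for BCL2 HEL pos over HEL pos cells. Without the low-count filter the counts were 1 (0) for PP over mLN in BCL2 HEL pos cells and 4 (1) for BCL2 HEL pos over HEL pos cells in PP.

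With the library number as a replicate block 6 members (3) were called for PP over mLN in HEL pos cells, 5 (3) for PP over spleen and 1 (0) for PP over mLN in BCL2 HEL pos cells, and 1 (4) for HEL pos over HEL neg cells, Ctsb. Where the numbers pair libraries, the block otherwise added Atp6ap2 and Ctse for PP over spleen in HEL pos cells and Ctso for mLN over spleen in BCL2 HEL pos cells and lost no call. It could not be fitted for BCL2 HEL pos over HEL pos cells or BCL2 HEL pos over HEL neg cells, which share no number. Without the pooled HEL pos libraries the counts were 1 (5) for PP over spleen in HEL pos cells and 3 (5) for BCL2 HEL pos over HEL pos cells in spleen. Without 399 and Pool of the PP HEL pos libraries they were 1 (5) for PP over spleen and 1 (3) for PP over mLN in HEL pos cells and 0 (1) for BCL2 HEL pos over HEL pos cells in PP.

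Leaving out 1 library gave 2 to 5 members called for PP over spleen, 9 to 12 for mLN over spleen and 2 to 5 for PP over mLN in HEL pos cells. In BCL2 HEL pos cells it gave 0 to 4, 1 to 7 and 0 to 1 for the same comparisons. BCL2 HEL pos over HEL pos cells gave 1 to 8 in spleen, 1 to 8 in mLN and 0 to 3 in PP. HEL pos over HEL neg cells gave 0 to 5, and BCL2 HEL pos over HEL neg cells 1 to 4. Members near the floor of 3 counts, such as Ctsw and Atp6v1g2, have levels set by few reads.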

Other observations

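The HEL neg libraries, with 1 pool per tissue, allow no test between tissues, and their values are given as measured. Lamp2 had 59.8 CPM in PP and 129 CPM in spleen HEL neg cells, and Atp6ap2 had 92.4 and 132 CPM. In the mLN and spleen HEL neg libraries Ctsb had 284 and 306 CPM, and Lamp1 had 336 and 300. The summed level of Lamp1 and Lamp2 was 695.2 to 746.3 CPM in mLN HEL pos cells, 446.6 to 480.9 CPM in spleen HEL pos cells and 375.6 to 442.9 CPM in the 3 HEL neg libraries. The 10 V0 subunits summed to 710 to 788.3 CPM in mLN HEL pos cells and 535.4 to 669.4 CPM in spleen HEL pos cells, while the 18 cathepsins summed to 4281 to 4644 CPM in mLN HEL pos cells and 3856 to 4493 CPM in spleen HEL pos cells, ranges that overlap.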
